A study of Pinctada imbricata with 5 samples.

Results

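Unigene89534 is the single unigene, that is assembled transcript, whose best protein match in the nr database was allograft inflammatory factor 1. It was chosen by that match and not by its values, and it is 1 of 19415 unigenes listed in the 5 libraries together. The match was to the protein of the sponge Suberites domuncula with an e-value of 9.73e-42. No other listed unigene matched allograft inflammatory factor 1.

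The gene was followed in the pearl sac, the pouch of mantle epithelium that closes around an implanted nucleus, of a pearl oyster labelled as Pinctada imbricata and in the series title as Pinctada martensii. Tissue was taken 10, 15, 20, 30 and 60 days after surgical implantation from oysters aged 1.5 years. There was 1 library per day and no unoperated or sham-operated tissue was analysed here. How many oysters each library pools, and which oysters gave the mantle graft, is not in the labels. Each library is a tag profile, in which a short piece next to a CATG site of a messenger RNA is read and counted.

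Allograft inflammatory factor 1 is a small protein with EF-hand motifs, which bind calcium, and it binds and bundles actin filaments. In vertebrates it is a marker of macrophages and was first described in rejected grafts. In bivalves it is described as a gene of hemocytes, the circulating cells that gather at wounds and take up particles, and pearl culture itself rests on a graft of mantle from one oyster into another. The term annotations deposited for Unigene89534 were protein complex, nucleus, actin cytoskeleton, inflammatory response, cell cycle arrest and negative regulation of cell proliferation.

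The tags that identify the gene are printed because every value below is a count of them. In the 5 libraries together the unigene had 2563 tags of 21 bases, of 7 different sequences. Of these, 2556 (99.7%) came from the CATG site closest to the 3′ end (site 1), and 2500 were copies of a single sequence. In the lines below that sequence has bases 13 and 17 in capitals, counted from 1 at the 5′ end of the tag, and each variant of it has its own changed base in capitals. Sites 2 and 3 are the next CATG sites inward from the 3′ end, and their tags are in lower case throughout.
Most copied tag, site 1: catgtcaaagggTatcCagtt
Variant T13A, site 1: catgtcaaagggAatccagtt
Variant T13G, site 1: catgtcaaagggGatccagtt
Variant T13C, site 1: catgtcaaagggCatccagtt
Variant C17A, site 1: catgtcaaagggtatcAagtt
Site 2 tag: catgtttactgaatcataatt
Site 3 tag: catgttcgtatagtatgtttt

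No listed tag of another unigene came near the most copied one. Among 32250 tags searched, the closest one of another unigene differed from it at 6 bases. Each listed tag belonged to 1 unigene, so the counts of Unigene89534 were shared with no other listed unigene. Most tags of each library are not listed and could not be searched, so a like tag from another transcript could not be seen.

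The gene was high on days 10, 30 and 60 and low on days 15 and 20. In order of day, Unigene89534 had 713, 144, 152, 711 and 843 tags, and the authors' TPM, which is tags per 1000000 tags of the library, was 151, 30.1, 31.8, 151 and 178. Divided by scaling factors between libraries (TMM in edgeR), the level was 159 scaled TPM on day 10 (95% Poisson interval 148 to 171), 26.0 on day 15 (21.9 to 30.6), 35.5 on day 20 (30.0 to 41.6), 171 on day 30 (158 to 184) and 155 on day 60 (145 to 166). The interval of each high day lay above those of both low days. The highest level, on day 30, was 6.57 times the lowest, on day 15. These intervals and all intervals below cover counting error only, since a day has 1 library, which leaves the variation among oysters and preparations unmeasured, and no test between days could be made. In a bulk sample, fewer cells of a type and less RNA per cell cannot be told apart.

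**Figure D1:**
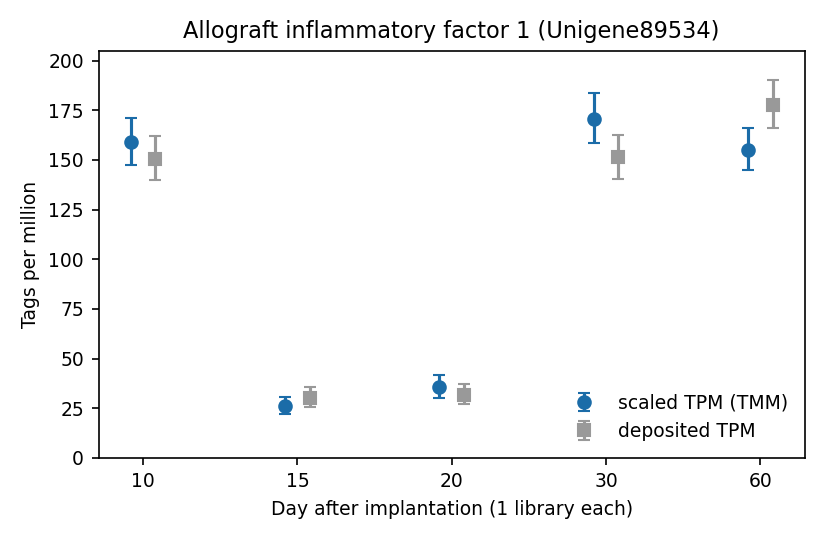
Level of Unigene89534 in TPM (y axis) in the library of each day after implantation (x axis). Circles are scaled TPM and squares the deposited TPM, with 95% Poisson intervals. On the scaled axis days 10, 30 and 60 lie at 155 to 171, and days 15 and 20 at 26.0 and 35.5.

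Ordered by scaled TPM the days ran 30, 10, 60, 20 and 15. With this scaling days 30, 10 and 60 could not be ordered, because the intervals of their ratios took in equality. The scaled TPM on day 30 was 1.07 times that on day 10 (0.966 to 1.19). The day 60 level was 0.976 times that of day 10 (0.882 to 1.08) and 0.909 times that of day 30 (0.822 to 1.01). The direction of both day 60 ratios depended on the scaling. With the deposited TPM they were 1.18 and 1.18, so that day 60 was then the highest of the 5. Between the low days, the level on day 20 was 1.37 times that on day 15 (1.08 to 1.73), a difference that shrank to 1.05 (0.834 to 1.33) with the deposited TPM.

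All 10 pairs of days were compared, the later over the earlier, by a rule that asked the higher library for 10 scaled TPM or more and the whole 95% interval of the ratio to lie beyond 2-fold. Called below means past this rule. Of the 10 pairs, the 6 that join a high day with a low day were called and the other 4 were not. With 144 tags on day 15 against 713 on day 10, the gene was 6.12-fold lower on day 15 (5.11 to 7.38). On day 20 it was 4.48-fold lower than on day 10 (3.76 to 5.38), with 152 tags against 713. So both low days lay several-fold under day 10.

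Levels were again high in the libraries of days 30 and 60. Unigene89534 was 4.81-fold higher on day 30 than on day 20 (4.03 to 5.77) and 6.57-fold higher than on day 15 (5.49 to 7.92). On day 60 it was 4.38-fold higher than on day 20 (3.68 to 5.24) and 5.98-fold higher than on day 15 (5.00 to 7.18). All 6 calls held in each of the 8 other settings tried, which changed the scaling, the minimum level or the tags counted. The changes of minimum level could not alter the ratios of this gene. Those of the tags counted kept at least 97.5% of its tags over the 5 libraries together, so mainly the scaling was put to trial.

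**Figure D2:**
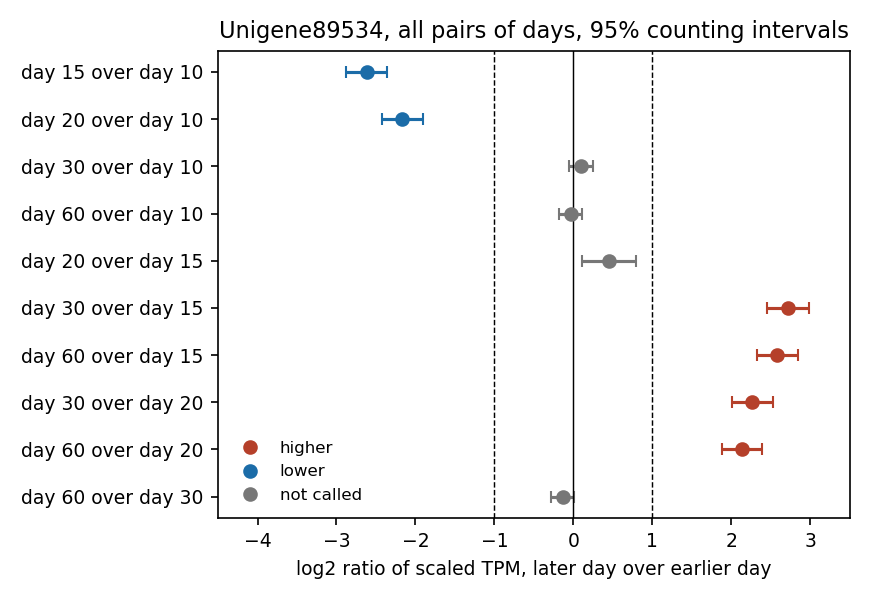
Ratio of scaled TPM of Unigene89534, later day over earlier day, on a log2 axis for the 10 pairs of days, with 95% intervals from the tag counts and dashed lines at 2-fold. The 6 pairs of a high and a low day lie wholly beyond the lines, and the other 4 lie between them.

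Calls were common over all unigenes, so a call alone does not set the gene apart. Of 1669 unigenes compared, 24.0% were lower and 20.3% higher on day 15 than on day 10. For day 20 over day 10, 21.3% of 1581 were lower and 15.8% higher. Where Unigene89534 was higher, so were 19.8% of 1534 unigenes for day 30 over day 20 (18.9% lower), 22.2% of 1640 for day 30 over day 15 (25.1% lower), 25.0% of 1643 for day 60 over day 15 (25.0% lower) and 23.0% of 1585 for day 60 over day 20 (24.2% lower). Of the pairs in which Unigene89534 was not called, day 30 over day 10 had 8.95% of unigenes higher and 12.8% lower, and day 60 over day 10 had 14.5% higher and 19.0% lower. Day 20 over day 15 had 25.6% higher and 26.8% lower, and day 60 over day 30 had 15.7% higher and 15.2% lower. On the log2 scale of scaled TPM plus 1, 12.3% of the unigenes compared had a lower ratio than Unigene89534 for day 15 over day 10, and 86.9% had a lower one for day 30 over day 20. The gene thus stood in the outer part of the distribution both times, but not at its end.

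The 5 libraries held 4700927 to 4784093 tags in all, of which 12.8% to 28.0% were listed for unigenes. The library composition differed between days. A single other unigene, Unigene51171, took 43.2%, 37.7%, 60.1%, 20.1% and 31.2% of the listed tags in order of day. This share was highest on day 20, where Unigene89534 was low, and lowest on day 30, where Unigene89534 was high. From day 10 to day 15, however, the share and the level of Unigene89534 both fell. Per 1000000 listed tags without that unigene, Unigene89534 had 1343, 238, 284, 1482 and 1702 tags in order of day, so the same 2 days were low. The scaling moved the balance of calls over all unigenes. The higher calls were 45.9% of all calls for day 15 over day 10 and 59.5% with the deposited TPM, 48.9% and 34.8% for day 20 over day 15, 46.9% and 31.3% for day 30 over day 15, 43.3% and 56.0% for day 60 over day 10, 48.7% and 63.5% for day 60 over day 20, and 50.7% and 69.6% for day 60 over day 30. For day 30 over day 20 they were 51.1%, and 38.4% with library totals that leave out Unigene51171.

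The change between days was carried by the most copied tag of site 1. This tag had 702, 142, 148, 688 and 820 copies in order of day, 96.8% to 98.6% of the tags of the unigene in each library. Counted alone it was high and low on the same days. Site 2 gave 3 copies on day 10 and 2 on day 30, and site 3 gave 2 copies on day 15. The tables list no tag with fewer than 2 copies, so an unlisted tag may have been seen once. Use of several sites was common in these tables, since 42.6% of the 2202 unigenes of at least 10 scaled TPM in a library had tags at more than 1 site, and in 65.0% at least 99% of tags came from the 3′-most site used.

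The variants of the site 1 tag were few and nearly all at base 13. T13A had 3, 0, 0, 9 and 12 copies in order of day, T13G had 5, 0, 4, 4 and 8, and T13C had 0, 0, 0, 6 and 3. C17A was listed only on day 30, with 2 copies. Together they made 1.13% of site 1 tags on day 10 (exact 95% interval 0.488 to 2.21), 0 of 142 on day 15, 2.63% on day 20 (0.722 to 6.60), 2.96% on day 30 (1.84 to 4.49) and 2.73% on day 60 (1.74 to 4.07). The share on day 30 was 2.63 times that on day 10 (1.12 to 6.86), and the share on day 60 was 2.42 times that on day 10 (1.05 to 6.26). Over the 10 pairs of days, 3 intervals of this ratio left out equality, those 2 and day 30 over day 15, and 7 took it in, with no adjustment for the number of pairs. Variants of single copies are not listed, and their part in these shares was not tested.

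The variants were set beside those of other sites, a description chosen after the data were seen. In all libraries together 56 of 2556 site 1 tags (2.19%) differed by 1 base from the most copied sequence, and 54 of the 56 (96.4%) did so at base 13. Over 675 sites with at least 500 tags the median share of such variants was 0.539%, and 239 sites had a higher share than this one. Variants that gather at a single base were usual, since of the 290 sites with at least 20 variant tags 64.1% had at least 90% of them at 1 position. Base 13 was not where variants generally lay, with 2.57% of all variant tags and a variant at 10.4% of sites. All 3 other bases at some position were found at 49 of the 675 sites (7.26%). The source of the variants was not tested.

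**Figure D3:**
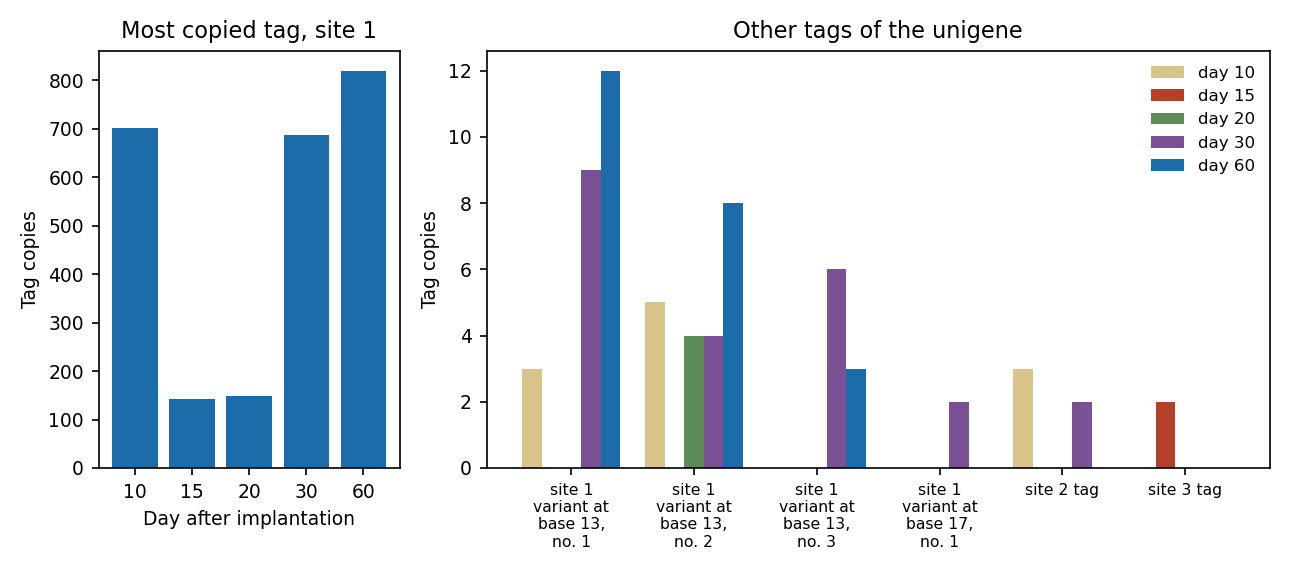
Copies (y axes) of the most copied tag of Unigene89534 by day (left) and of its 6 other tags by day (right, on its own scale). The most copied tag had 142 and 148 copies on days 15 and 20 and 688 to 820 on the other days, and no other tag exceeded 12 copies.

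Matches to hemocyte markers other than this gene were few and of low count. The search could reach only the 5341 of 19415 unigenes with a protein match, so markers without a match could not be seen. The list of hemocyte markers, with plastin, transglutaminase, lysozyme, macrophage proteins, granulin and cathepsin L, held 13 other unigenes, and 0 of the 13 reached 10 scaled TPM in any library. Their tags summed to 32, 33, 14, 29 and 22 in order of day, or 3.3 to 7.1 scaled TPM, and no single one exceeded 19 tags. The most abundant was a cathepsin L2 match (Unigene64630), a lysosomal protease, with 7, 10, 0, 19 and 3 tags. It was followed by a cathepsin L (Unigene86317) with 5, 9, 0, 3 and 3 tags, a macrophage expressed protein match (Unigene70215) with 0, 5, 4, 5 and 4, and a lysozyme match (Unigene86283), an enzyme that cuts bacterial walls, with 2, 0, 10, 0 and 0. The rarer ones were named after their values were seen. The match to hemocyte transglutaminase (Unigene79944), which crosslinks proteins in clotting, had 4 tags on day 15 alone. Plastin-3 (Unigene87402), an actin-bundling protein, had 3 tags on day 15 alone. Cathepsin L matches had 7, 0, 0, 0 and 2 tags (Unigene88025), 2, 0, 0, 0 and 4 (Unigene86676) and 2, 0, 0, 0 and 2 (Unigene86229). Macrophage expressed protein matches had 3, 0, 0, 2 and 0 (Unigene89953) and 2, 0, 0, 0 and 2 (Unigene91277). A granulin match (Unigene83898) had 2, 2, 0, 0 and 0, and a macrophage migration inhibitory factor match (Unigene2231) had 2 tags on day 60 alone.

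The summed level of these other hemocyte markers was 7.1 scaled TPM on day 10 and 6.0 on day 15. It was lowest on day 20, at 3.3 scaled TPM, then 7.0 on day 30 and 4.0 on day 60. Counts this low allow wide errors, and the number of hemocytes in the tissue was not measured. Whether these markers follow hemocytes in this tissue was not tested.

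Markers of other tissues were summed in the same way. Unigenes of the nacre and mantle list, which mark the labelled tissue, were found in each library and summed to 568, 90.0, 225, 890 and 83.0 scaled TPM in order of day, with 12 of 29 members at 10 scaled TPM or more in a library. This sum was high on days 10 and 30 and low on days 15 and 60. Much of it was 1 unigene, a tyrosinase-like protein (Unigene1470), of a family of shell-forming enzymes, with 1127 tags on day 10, 2622 on day 30 and none listed on the other days. Without it, an alternative chosen after seeing the data, the sums were 317, 90.0, 225, 260 and 83.0 scaled TPM. The next members by mean level had unlike courses, so the sum is not the course of each. Nacre protein (Unigene14842) had 78, 5, 111, 356 and 152 tags in order of day. Mantle gene 4 (Unigene59776) had 277, 308, 143, 0 and 0, and mantle gene 5 (Unigene39109) had 153, 0, 0, 395 and 0. Motile cilia and sperm markers (31 members) summed to 6.2, 148, 6.5, 6.5 and 13.6, high on day 15, and 69.3 on day 15 without their most abundant member. Muscle markers (16 members) lay between 3.6 and 9.6, digestive gland markers (4) between 3.3 and 22.5, and nervous system markers (25) between 20.7 and 46.7. These sums also rested much on 1 member each. Without it the day 10 sums fell from 3.6 to 1.8 for muscle, 22.5 to 0 for digestive gland and 34.8 to 11.8 for nervous system. The part that a different mix of cells had in the levels of Unigene89534 was not tested.

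Genes of immune recognition included some with a change like that of Unigene89534 and others with the opposite one. Members here needed 10 scaled TPM in some library, which favours members that differ between days, so their counts are a description. Of the 64 unigenes on the list, 13 reached that level and 12 could be compared for day 15 over day 10, of which 6 were lower and 2 higher, where 24.0% of all unigenes compared were lower and 20.3% higher. For day 30 over day 20, 7 could be compared, of which 5 were higher and 0 lower, where 19.8% of all were higher and 18.9% lower. The median log2 ratio of the 13 was -0.69 on day 15 over day 10, beside -0.14 over all unigenes of that level, and 0.75 on day 30 over day 20, beside 0.00. With a minimum of 1 scaled TPM the list's medians were -0.53 and 0.04, and with a pseudocount of 5 they were -0.65 and 0.48, so the median for day 30 over day 20 depended on the minimum.

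Of the 4 most abundant immune members, 1 was called in the same direction as Unigene89534 both times. This was a complement C1q-like match (Unigene70093), of a family of secreted recognition proteins, with 112, 35, 69, 203 and 193 tags in order of day. It was 3.96-fold lower on day 15 than on day 10 (2.69 to 5.96) and 3.03-fold higher on day 30 than on day 20 (2.29 to 4.04). Galectin (Unigene82154), a lectin that binds galactosides, had 1206, 942, 556, 571 and 680 tags and was called in none of the 4 steps between consecutive days. C1q domain protein 2 (Unigene86498) had 158, 410, 33, 118 and 240 tags and was 2.10 times as high on day 15 as on day 10 (1.74 to 2.54), which was not called, and 3.68-fold higher on day 30 than on day 20 (2.48 to 5.59). The galectin-4 match (Unigene89194) ran against Unigene89534, with 14, 429, 21, 23 and 9 tags, 24.8-fold higher on day 15 than on day 10 (14.6 to 45.7).

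Among the other immune members, a jacalin-related lectin (Unigene2003), of a family of sugar-binding proteins, had 85, 2, 9, 46 and 2 tags in order of day. It was called lower on day 15 over day 10 and higher on day 30 over day 20, as Unigene89534 was, but had 2 tags on day 60. The galactose-binding lectin (Unigene75519) had 174 tags on day 10 and was unlisted on the 4 later days. A thioester-containing protein (Unigene38628), a complement-like protein that tags microbes, had 81, 5, 12, 9 and 0 tags in order of day. Peptidoglycan recognition protein L (Unigene88153), of a family that binds bacterial cell walls, had 13, 63, 11, 71 and 112 and was called higher both on day 15 over day 10 and on day 30 over day 20. These 4 were named after their values were seen.

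**Figure D4:**
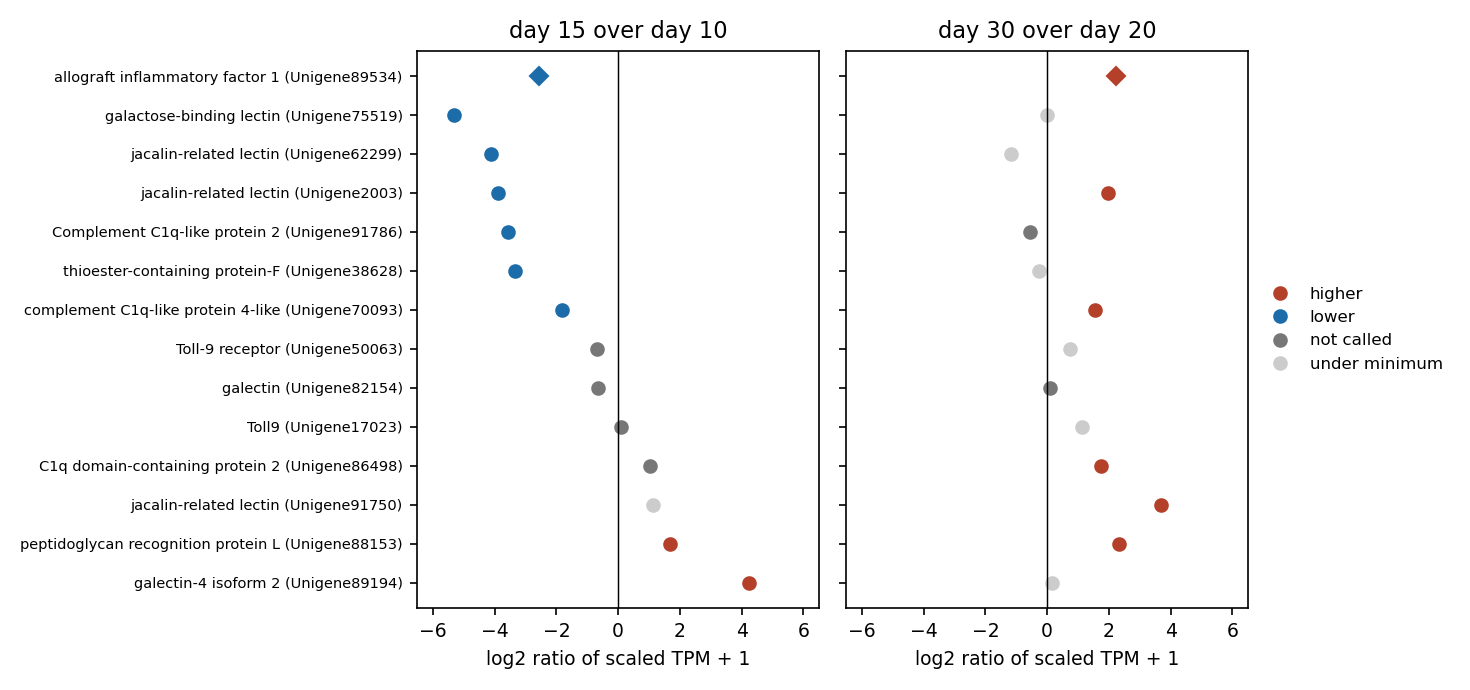
log2 ratio of scaled TPM plus 1 for day 15 over day 10 (left) and day 30 over day 20 (right), for Unigene89534 (diamond, top row) and the 13 unigenes of the immune list that reached 10 scaled TPM in a library (circles), coloured by the call. On the left 6 of the circles are lower and 2 higher, and on the right 5 are higher and 0 lower, while Unigene89534 is lower on the left and higher on the right.

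Genes of the actin cytoskeleton and phagocytosis, the machinery that allograft inflammatory factor 1 binds to, were mostly of low count. Of 36 listed unigenes 2 reached 10 scaled TPM. The ezrin, radixin and moesin match (Unigene91535), which ties actin to the cell membrane, had 149, 63, 218, 123 and 135 tags in order of day. It was 2.93-fold lower on day 15 than on day 10 (2.16 to 3.99), as Unigene89534 was, but 4.48-fold higher on day 20 than on day 15 (3.37 to 6.02), where Unigene89534 was not called. A profilin match (Unigene87076), an actin monomer binder, had 8, 36, 29, 20 and 78 tags and was called only on day 60 over day 10, 8.05-fold higher (3.89 to 19.3), among the 5 comparisons made for the lists, the 4 consecutive steps and day 60 over day 10. A subunit match of the Arp2/3 complex, which nucleates actin branches (Unigene86627), had 27, 44, 25, 11 and 43 tags, and an F-actin capping protein match (Unigene92127) had 16, 11, 33, 22 and 8. Neither reached the minimum level.

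Other EF-hand calcium binders showed different courses. Of 26 listed 3 reached 10 scaled TPM. The calcineurin B match (Unigene90071), part of a phosphatase that calcium activates, had 122, 255, 22, 60 and 34 tags in order of day and was 8.96-fold lower on day 20 than on day 15 (5.79 to 14.6). The calmodulin match Unigene91212, the general calcium sensor, was high on day 15 alone, with 2, 104, 0, 0 and 17 tags, and the calmodulin match Unigene91150 had 20, 15, 19, 12 and 16. A neuronal calcium sensor match (Unigene13560), also on the nervous system list, had 16, 0, 49, 0 and 52 tags. None of these 4 was high on days 10, 30 and 60 together and low on both other days.

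In the list of wound repair and extracellular matrix 3 of 45 unigenes reached 10 scaled TPM. Integrin beta-1 (Unigene20091), a receptor for matrix, had 54, 8, 7, 16 and 30 tags in order of day and was 8.35-fold lower on day 15 than on day 10 (3.95 to 20.3). Its level was under the minimum on all 4 later days, so the later steps were not compared. Collagen IV alpha 1 (Unigene90525), of basement membranes, was highest on day 20, where Unigene89534 was low, with 36, 64, 753, 45 and 28 tags. A collagen XXI match (Unigene1683) had 0, 14, 62, 3 and 2, and the match to a tissue inhibitor of metalloproteinases (Unigene84543) had 0, 30, 20, 0 and 15.

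The unigenes with the most alike course were found by the root mean square difference of their log2 levels, each centred on its own mean over the 5 libraries. Of 2202 unigenes that reached 10 scaled TPM, the 3 closest to Unigene89534 had no protein match. Unigene27644 was closest (difference 0.12), with 55, 8, 8, 55 and 54 tags in order of day, followed by Unigene79300 (0.16) with 64, 14, 15, 70 and 88 and Unigene64755 (0.17) with 242, 49, 45, 195 and 220. The median difference over all was 1.45, and 45 unigenes lay closer than 0.5. All share the same 5 libraries, and 5 points leave room for many alike courses.

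Among the 265 with a named match, the 8 closest had varied roles. A calcitonin-related receptor of the eastern oyster (Unigene68191), of a family of peptide hormone receptors, was closest (difference 0.38), with 57, 16, 12, 42 and 69 tags in order of day. It was followed by a ubiquitin thioesterase match (Unigene92790, 0.42), of enzymes that remove ubiquitin, with 31, 9, 7, 31 and 72 tags. A subunit of translation initiation factor 3 (Unigene90069, 0.46) had 322, 98, 51, 522 and 686 tags and was 10.5-fold higher on day 30 than on day 20 (7.89 to 14.3). The C1q-like match Unigene70093 (0.50), described above, was the only one of the 8 from the immune list.

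The other 4 of the 8 were less close. They were a match to Pno1 (Unigene50069, difference 0.59), known in yeast for ribosome assembly, the match to defender against cell death 1 (Unigene87160, 0.59), a subunit of the enzyme that adds sugar chains to proteins, cytochrome P450 CYP356A1 (Unigene86703, 0.62) and the signal sequence receptor beta match (Unigene66740, 0.62), of the membrane of the endoplasmic reticulum. Defender against cell death 1 had 305, 160, 132, 359 and 322 tags, and was 2.36 times lower on day 15 than on day 10 (1.94 to 2.87), which was not called, where Unigene89534 was 6.12-fold lower. By Pearson's correlation 6 of the 8 were again among the closest 8 with a named match.

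**Figure D5:**
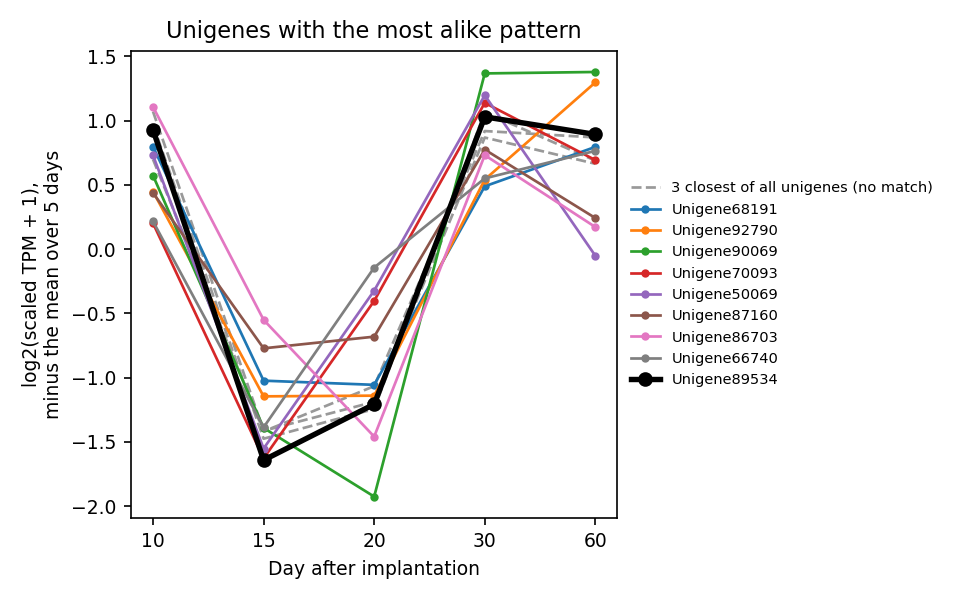
log2 of scaled TPM plus 1, less the mean of each unigene over the 5 days (y axis), by day (x axis). The thick black line is Unigene89534, dashed grey lines are the 3 closest of all unigenes, within a difference of 0.17, and coloured lines are the 8 closest with a named match, within 0.62. Each line is above its mean on day 30 and below it on days 15 and 20.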

How the data were processed

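Per the file headers, the authors deposited for each library a table of unigenes with a tag count, a TPM, annotation, and each tag with its site number and copies. The deposited count is the sum of the tag copies. The deposited TPM is in effect an RPM, the count per 1000000 tags of the library, with no length correction. Per the labels, libraries were made with a TruSeq kit, although all listed tags start with CATG. Aligner, assembly and mismatches allowed: not given in the sources used here. No genome was used.

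Library totals were recovered as count over TPM from unigenes of at least 5000 tags, and TMM factors (0.947, 1.16, 0.896, 0.886 and 1.15 in order of day) were computed on them in edgeR 4.0.16 (R 4.3.3). Scaled TPM is TPM over the factor. A minimum of 10 scaled TPM is 41.7 to 55.4 tags. Ratio intervals are Clopper-Pearson intervals conditional on both counts, and with 1 library per day no p-value was computed. Set on simulated counts of day 15 and day 10, the rule recovered 200 of 200 unigenes changed 8-fold, with 0 false calls. Those counts had Poisson error alone and no change in the other unigenes, so they cannot tell how many real calls are false. An 8-fold change lies far beyond the 2-fold of the rule, so the recovery checks the calculation and not the detection of smaller changes. Lists are patterns over the protein match, without members matched by another word. Named were the 8 closest unigenes with a named match, the 3 closest of all and, except where stated, the 4 members of highest mean level in some lists. Those were the hemocyte, mantle, immune, actin, EF-hand and matrix lists and the term negative regulation of cell proliferation. Of the terms protein complex and nucleus only the most abundant were named, and of the other lists and terms none by this rule. Members and lists were chosen with earlier results of these data known. Alternatives were other scalings (RLE, deposited TPM, listed tags), minimum levels, pseudocounts and tag sites, and 3 were added after the data were seen. Python 3.11.15, numpy 2.4.6, scipy 1.17.1, pandas 2.3.3 and matplotlib 3.10.9 were used.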

Additional observations from a re-analysis of the deposited data

How the results depend on the processing

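The 6 called pairs of Unigene89534 kept call and direction in all 8 other settings, of which the changes of minimum level could not alter its ratios. Its ratio lay between 0.162 and 0.200 for day 15 over day 10, 0.211 and 0.233 for day 20 over day 10, 4.76 and 6.65 for day 30 over day 15, 5.62 and 7.14 for day 60 over day 15, 4.06 and 5.21 for day 30 over day 20, and 4.33 and 5.98 for day 60 over day 20. The other 4 pairs were called in none of the settings, and some ratios left the counting interval: day 60 over day 10 was 1.18 with the deposited TPM, 1.27 with listed tags less Unigene51171 as totals and 1.13 with library totals less Unigene51171, day 60 over day 30 was 1.18, 1.15 and 1.20, day 20 over day 15 was 1.05 with the deposited TPM, and day 30 over day 10 was 0.943 with totals less Unigene51171. The setting with totals less Unigene51171 and that of the most copied tag alone were chosen after seeing the data.

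Counts over all unigenes moved with the minimum level, since it sets how many are compared. Against 739, 586, 325, 536, 857, 776, 822, 593, 747 and 471 calls (day 15, 20, 30 and 60 over 10, day 20, 30 and 60 over 15, day 30 and 60 over 20, day 60 over 30), no minimum gave 1825, 1313, 898, 1379, 1961, 1922, 2160, 1400, 1665 and 1151 and 30 scaled TPM gave 334, 266, 120, 237, 398, 367, 382, 266, 335 and 196. With a minimum of 1 scaled TPM the lists changed as follows. Immune members were 3 higher and 5 lower for day 20 over day 15, 1 lower for day 30 over day 20 and 2 lower for day 60 over day 30. Actin members were 2 higher and 1 lower for day 20 over day 15 and for day 60 over day 10, and 1 lower in the other 2 steps that changed. EF-hand members were 2 higher and 1 lower for day 15 over day 10 and day 60 over day 30, and 4 lower for day 20 over day 15. Matrix members were 2 higher and 2 lower for day 15 over day 10, 1 higher and 6 lower for day 30 over day 20, 2 higher and 1 lower for day 60 over day 30, and 1 and 1 for day 60 over day 10. Of the 8 closest named unigenes 7 were shared with a pseudocount of 5 and 7 with the deposited TPM. No paired analysis was possible because each day has 1 library. Depth limits unigenes under about 42 tags, and nothing here measures variation between oysters.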

Other observations

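Unigenes that share an annotation with allograft inflammatory factor 1 were described by term, a comparison chosen after the data were seen. The term inflammatory response was given to 7 unigenes of 2703 with any term, and the 6 other than Unigene89534 had at most 9 tags in any library and summed to 6, 22, 3, 13 and 9 in order of day. The 11 others with the term actin cytoskeleton summed to 25, 37, 2, 22 and 27 tags, lowest on day 20 and not low on day 15. The 8 others annotated with cell cycle arrest summed to 17, 37, 0, 2 and 20.

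In the term protein complex, the most abundant others were tubulins, the subunits of microtubules, which were high on day 15 where Unigene89534 was low. Beta-tubulin (Unigene18140) had 31, 877, 11, 209 and 49 tags in order of day, and an alpha-tubulin match (Unigene80575) had 22, 340, 25, 9 and 19. For day 30 over day 20 beta-tubulin was called higher, as Unigene89534 was, at 19.5-fold (10.7 to 39.8). The alpha-tubulin match was under the minimum level on both of those days. Among the 20 unigenes with the term negative regulation of cell proliferation, 4 others reached 10 scaled TPM. In order of mean level, a match to a hypothetical protein (Unigene67167) had 94, 111, 50, 152 and 0 tags in order of day. The match to calcium homeostasis endoplasmic reticulum protein (Unigene68223) had 25, 30, 144, 3 and 0, and nuclear pore glycoprotein p62 (Unigene91063) had 137, 11, 3, 8 and 7. The cytoplasmic tryptophanyl-tRNA synthetase match (Unigene92685), which loads a transfer RNA, had 10, 43, 53, 3 and 16.

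The term nucleus was the broadest, with 351 unigenes, of which 31 others reached 10 scaled TPM. For day 15 over day 10, 28 of these could be compared, of which 12 were higher and 3 lower, where 20.3% of all unigenes compared were higher and 24.0% lower. For day 30 over day 20, 17 could be compared, of which 2 were higher and 3 lower, where 19.8% of all were higher and 18.9% lower. The most abundant was a proteasome subunit (Unigene90760), part of the complex that breaks down proteins, with 241, 928, 223, 108 and 391 tags.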
